A study of Mus musculus with 2 samples.

Results

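The natural killer receptor genes Klrc1, Klrc2, Klrd1, Klrk1, Klre1, Klrb1c and Ncr1 and the adaptor genes Tyrobp and Fcer1g were followed in single cells of mouse hearts, taken 7 days after an infarction had cut off the blood supply to part of the heart muscle. These 9 genes were chosen by symbol, and all 9 were found among the 55357 genes of both count matrices. The anti-PD1 group was 1 library from hearts of mice that received an antibody to PD1, an inhibitory receptor on T cells and the product of Pdcd1. The anti-IgG group was 1 library from mice that received anti-IgG. All mice were wild type and all had an infarction, so neither library shows an uninjured heart, and the labels do not say how many animals went into a library. With 1 library per group there is no check against replicates, and p-values are not reported. Intervals are 95% intervals for counting error only, and they are too narrow where the transcripts of a gene lie together in few cells.

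These genes are the switches of natural killer (NK) cells and of cytotoxic and innate-like T cells. Klrc1 encodes NKG2A, an inhibitory receptor, and Klrc2 encodes NKG2C, its activating relative; each pairs with CD94, the product of Klrd1, and binds the non-classical class I molecule Qa-1. NKG2D, encoded by Klrk1, is an activating receptor for stress-induced ligands and signals through DAP10 (Hcst) and, in mice, also DAP12 (Tyrobp). Klre1 encodes a receptor that pairs with Klri1 or Klri2. Klrb1c encodes NK1.1 and Ncr1 encodes NKp46, activating receptors that use the Fc receptor gamma chain (Fcer1g). Both Tyrobp and Fcer1g also serve receptors of macrophages and other myeloid cells, so their transcripts alone do not mark an NK program.

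In the GRCm38 build with the GENCODE M21 annotation, the 6 Klr genes lie on chromosome 6 in the NK gene complex, with Klrb1c at 128778485 to 128789215 on the minus strand. Klre1 (129577905 to 129585827, plus strand) and Klrd1 (129591782 to 129598775, plus strand) are followed by Klrk1 (129610323 to 129623864), Klrc2 (129647496 to 129660689) and Klrc1 (129666015 to 129678973), all on the minus strand. On chromosome 7 lie Ncr1 (4337724 to 4345164, plus strand) and Tyrobp (30413760 to 30417585, plus strand), which neighbours Hcst, and Fcer1g lies on chromosome 1 (171229572 to 171234365, minus strand). Of the 2070 stretches of 90 bases in Klrc1 transcripts, 384 (18.6%) also occur in Klrc2 transcripts, where they are 6.24% of 6149 stretches. Reads of these neighbours could be lost or split between them, so the counts of both are uncertain. The part of the reads that fell in shared stretches was not tested. Their starts are less alike. The stretches from 250 bases before to 50 after the start, from RefSeq on GRCm38.p6, are shown for Klrc1, Klrc2 and Klrk1 because these neighbours differed between the libraries in different ways (Klrc1 chr6:129678924-129679223, Klrc2 chr6:129660547-129660846, Klrk1 chr6:129623815-129624114, all on the minus strand). Each is written 5′ to 3′ with motif matches in capitals.
Klrc1: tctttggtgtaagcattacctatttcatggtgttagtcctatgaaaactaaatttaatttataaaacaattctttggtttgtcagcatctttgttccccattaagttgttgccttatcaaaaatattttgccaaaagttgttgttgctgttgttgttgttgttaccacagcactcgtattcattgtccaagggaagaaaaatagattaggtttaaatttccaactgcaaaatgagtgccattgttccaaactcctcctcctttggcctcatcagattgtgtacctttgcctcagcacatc
Klrc2: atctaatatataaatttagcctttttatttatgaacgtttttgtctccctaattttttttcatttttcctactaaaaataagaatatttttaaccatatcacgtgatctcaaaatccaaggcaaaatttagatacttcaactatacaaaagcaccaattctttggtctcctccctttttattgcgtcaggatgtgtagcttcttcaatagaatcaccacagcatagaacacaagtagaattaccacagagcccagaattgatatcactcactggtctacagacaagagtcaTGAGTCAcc
Klrk1: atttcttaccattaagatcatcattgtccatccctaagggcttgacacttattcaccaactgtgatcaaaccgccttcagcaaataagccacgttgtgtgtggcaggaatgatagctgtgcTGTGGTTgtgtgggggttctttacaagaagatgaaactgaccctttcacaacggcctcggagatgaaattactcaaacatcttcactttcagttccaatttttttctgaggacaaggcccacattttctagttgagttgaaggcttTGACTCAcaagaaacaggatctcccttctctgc

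A promoter entry was found for 7 of the 9 genes, with Tyrobp and Klrd1 not matched. Aligned over 300 bases, the Klrc1 and Klrc2 stretches were identical at 154 positions (51.3%), within the range of 45.3% to 55.7% seen over all pairs of the 7 genes. The motifs searched on both strands were a T-box core (AGGTGTGA, in 1.27% of 27025 mouse promoters of the same length), a RUNX core (TGTGGTT, 5.37%), an AP-1 site (TGANTCA, 7.93%), an NR4A element (AAAGGTCA, 1.46%) and an ETS core (CCGGAA, 15.2%). The Klrk1 stretch held the RUNX core 129 bases before the start and the AP-1 site from base 17 after it. The Klrc2 stretch held the AP-1 site from base 41 after the start, and none of the 5 motifs lay in the Klrc1 or Klrb1c stretch. Ncr1 and Klre1 each held a RUNX core and Fcer1g an ETS core. These matches describe letters only.

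Of 6026 anti-PD1 and 4380 anti-IgG barcodes, 5835 and 4309 cells passed the filters, with 28627379 and 22640014 UMIs (unique molecular identifiers, tags that count captured RNA molecules) and medians of 3858 and 4079 UMIs per cell. The series design calls the material sorted T cells, while the protocol in the labels records digestion and dead cell removal but no sort. A UMI of Cd3d, Cd3e or Cd3g was found in 91.7% of anti-PD1 and 92.6% of anti-IgG cells, and 47 barcodes occurred in both libraries. Cells were placed in gates by marker genes other than the 9. NK-marker cells (78 anti-PD1, 42 anti-IgG) had UMIs of at least 3 of 14 NK genes and none of Cd4, Cd8a or Cd8b1. Most of them nevertheless carried Cd3 UMIs (88.5% and 90.5%), Trac was seen in 47.4% and 59.5% and Trdc in 19.2% and 14.3%. They are therefore called by their markers and not NK cells. Txk (83.3% and 95.2%) and the Ly49 gene Klra7 (60.3% and 52.4%) were the gate genes they most often held. CD8 effector cells (782 and 510) had CD8 and Cd3 UMIs and at least 2 of 7 effector genes. Gamma-delta cells had Trdc and a V segment, and were split into type 17 cells (503 and 248), with a UMI of a type 17 gene list that included Il17a, Il17f, Cd163l1 and Il23r, and the other gamma-delta cells (49 and 28). Other CD8 cells (514 and 395), CD4 cells (1316 and 1420), B cells (137 and 57), myeloid cells (123 and 56), cells with both T and B or myeloid markers (mixed, 323 and 183) and remaining cells (2010 and 1370) made up the rest. Levels are UMIs per 1000000 UMIs of the gate (CPM), and a gene is called past the fold when the ratio of anti-PD1 to anti-IgG levels was at least 1.5 or at most 0.667, its interval excluded 1 and at least 50 UMIs were summed.

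**Figure D1:**
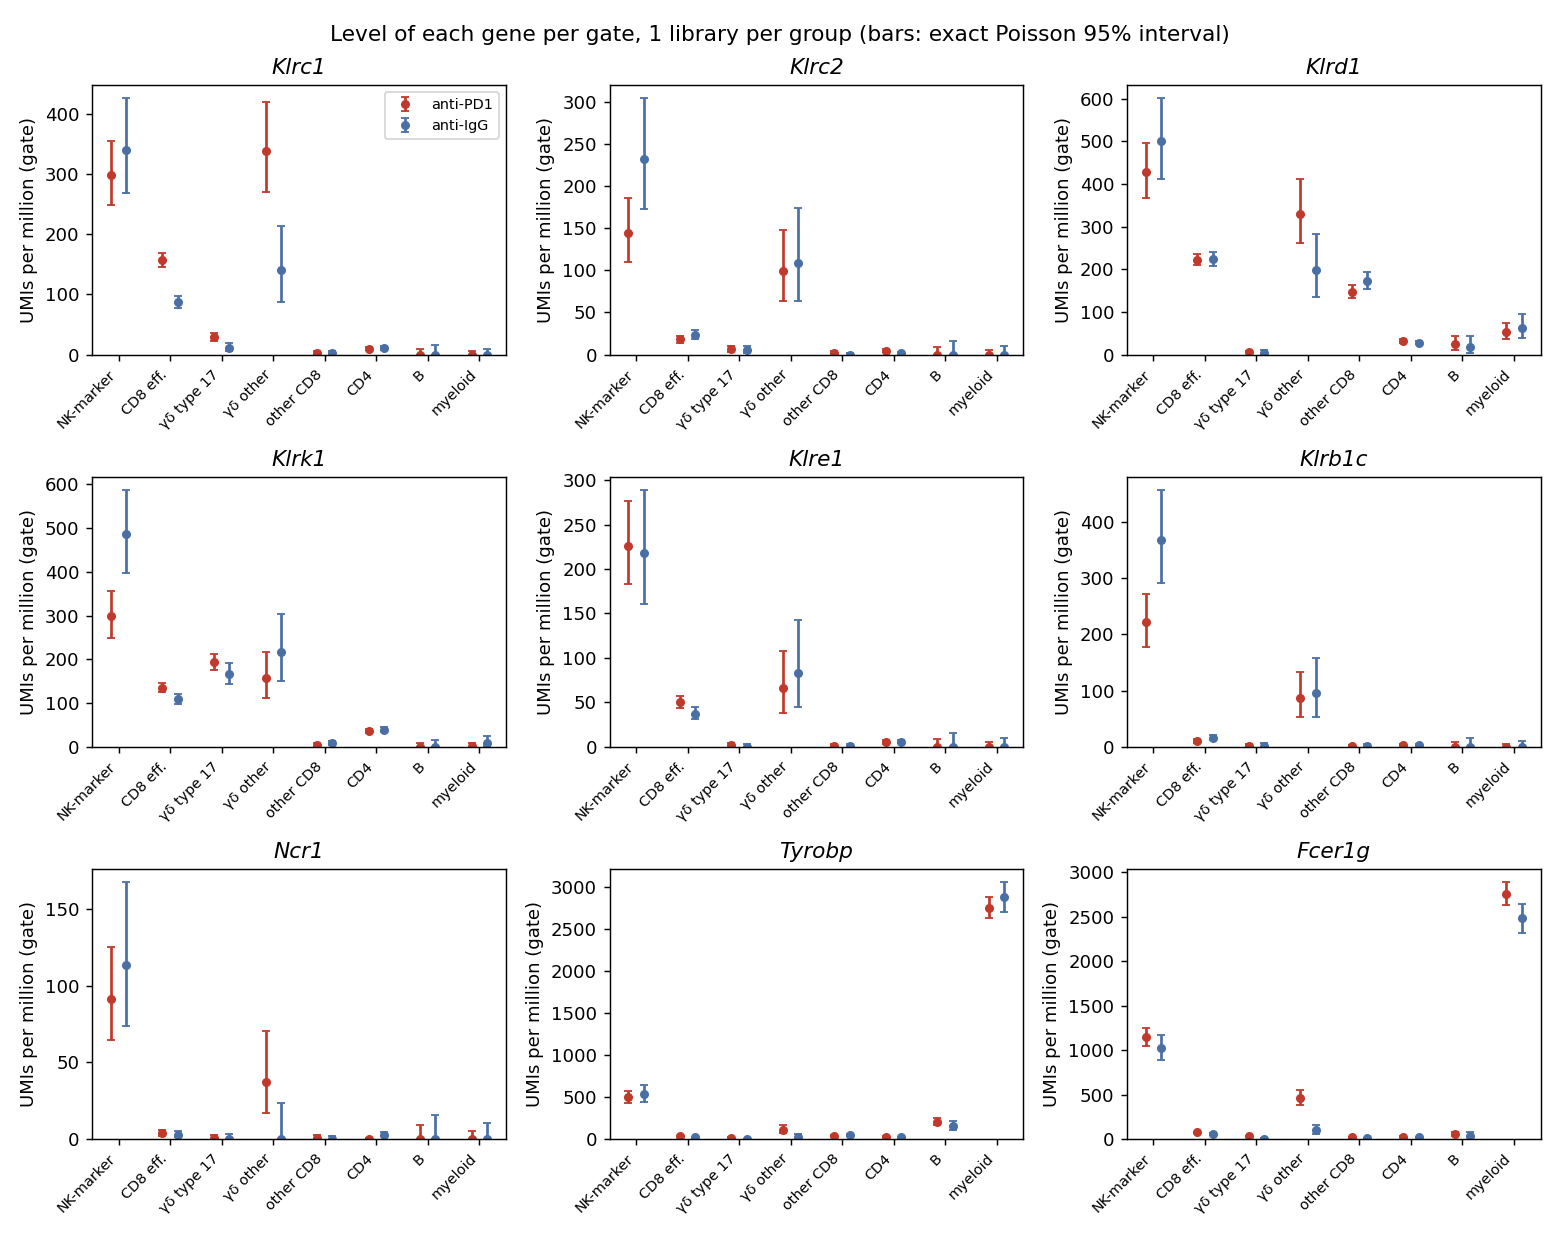
Level of each of the 9 genes (CPM of the gate) in 8 gates; red points are the anti-PD1 library, blue points the anti-IgG library and bars exact 95% Poisson intervals. NK-marker cells hold the highest level of each receptor in both libraries, except Klrc1 in the anti-PD1 library, which is highest in the other gamma-delta cells, Klrk1 is also present in gamma-delta type 17 cells, and the adaptors Tyrobp and Fcer1g are highest in myeloid cells.

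Klrc1, the inhibitory receptor gene, was the member with the largest difference between the libraries over all kept cells. Its level was 56.2 CPM (53.5 to 59.0, from 1609 UMIs) in anti-PD1 cells and 28.7 CPM (26.5 to 30.96, from 649 UMIs) in anti-IgG cells, a ratio of 1.96 (1.79 to 2.15). At least 1 Klrc1 UMI was found in 9.96% of anti-PD1 and 5.94% of anti-IgG cells. The activating relative Klrc2 stood at 11.98 CPM in anti-PD1 and 12.8 CPM in anti-IgG cells, a ratio of 0.939 (0.8003 to 1.101). The intervals of these 2 genes, which share a partner and a ligand, did not overlap, and that of Klrc2 leaves out any ratio past 1.5 either way.

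For Klrk1 the levels were 78.3 CPM in anti-PD1 and 61.1 CPM in anti-IgG cells (ratio 1.28, 1.20 to 1.37), and for Klre1 19.8 and 13.4 CPM (1.48, 1.28 to 1.70). Both ratios lay above 1 beyond counting error but did not reach 1.5; without myeloid, B and mixed cells Klre1 did, at 1.52 (1.31 to 1.76), and with cells thinned to 1000 UMIs, at 2.06 (1.44 to 2.98). Klrd1, the shared partner, was at 107.5 CPM in anti-PD1 and 97.4 CPM in anti-IgG cells (1.104, 1.045 to 1.17), so the partner differed less than Klrc1 did. Klrb1c (12.7 and 12.3 CPM, ratio 1.03, 0.883 to 1.21) and Ncr1 (4.26 and 3.40 CPM, ratio 1.25, 0.934 to 1.69) did not differ beyond counting error. Among the adaptors, Tyrobp was at 313.6 CPM in anti-PD1 and 320.6 CPM in anti-IgG cells (0.978, 0.949 to 1.009) and Fcer1g at 230.2 and 198.5 CPM (1.16, 1.12 to 1.20). With the gates weighted alike in both libraries the Fcer1g ratio turned to 0.927 and the Klrc1 ratio was 1.78. Over all kept cells 1 of the 9 members, Klrc1, was past the fold as higher and 0 as lower, where 5.14% of the 13608 genes with enough UMIs were past it as higher and 12.1% as lower. The median log2 ratio was 0.21 over the members and -0.13 over all those genes.

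**Figure D2:**
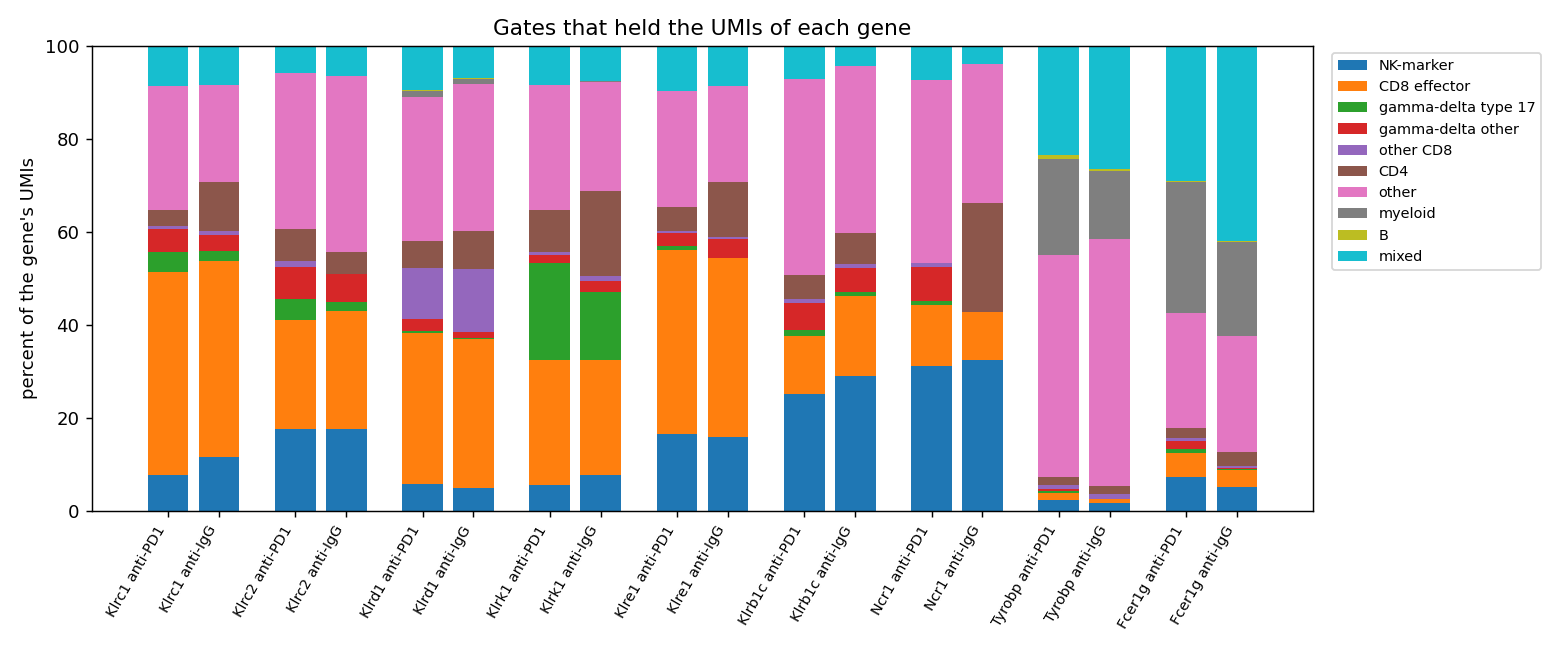
Share of each gene's UMIs (percent, vertical axis) held by each gate, anti-PD1 left of anti-IgG for each gene. CD8 effector cells held 43.6% of the Klrc1 UMIs in the anti-PD1 library and 42.2% in the anti-IgG library, while remaining, mixed and myeloid cells held most of Tyrobp and Fcer1g.

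The genes differed in where their transcripts lay, as the plot of UMI sources shows. CD8 effector cells held 43.6% of Klrc1 UMIs in the anti-PD1 and 42.2% in the anti-IgG library, and NK-marker cells 7.71% and 11.6%. Ncr1 UMIs lay in few cells, and NK-marker cells held 31.1% of these UMIs in the anti-PD1 and 32.5% in the anti-IgG library. Gamma-delta type 17 cells held 20.9% of the Klrk1 UMIs of anti-PD1 cells and 14.7% of those of anti-IgG cells, but 0.455% and 0.272% of the Klrd1 UMIs. Tyrobp lay mainly in the remaining, mixed and myeloid cells, and the NK-marker, CD8 effector and both gamma-delta gates together were a small part of it (2.31%, 1.59%, 0.390% and 0.301% in the anti-PD1 library). In B cells, which should lack these receptors, 0 UMIs of Klrc1, Klrc2, Klrk1, Klre1, Klrb1c and Ncr1 were found in either library, for which a count of 3 cells with a UMI would be 2.19% of 137 anti-PD1 and 5.26% of 57 anti-IgG cells. Klrd1 was seen in 1.46% and 1.75% of B cells. Tyrobp was seen in 13.9% and 12.3%, but 1 cell held 45 of the 84 UMIs in the anti-PD1 and 1 cell 27 of the 35 in the anti-IgG library, and the gate held 645.2 and 365.7 CPM of the 13 myeloid genes that served to gate myeloid cells, so B cells give no background for Tyrobp in T cells.

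NK-marker cells made up 1.34% (1.06 to 1.67) of anti-PD1 and 0.975% (0.703 to 1.31) of anti-IgG cells, a ratio of 1.37 (0.931 to 2.05) that was not beyond counting error. With 2 of the 14 NK genes required the shares were 3.60% and 2.72%, and the ratio of 1.33 (1.05 to 1.68) was. Within them 3 of the 4 activating receptor genes were lower in the anti-PD1 library, and the inhibitory Klrc1 did not differ beyond counting error. Klrk1 was at 298.4 CPM (124 UMIs, in 59.0% of cells) in anti-PD1 and 485.9 CPM (107 UMIs, in 73.8%) in anti-IgG NK-marker cells, a ratio of 0.614 (0.470 to 0.803). Klrb1c stood at 221.4 CPM in anti-PD1 and 367.8 CPM in anti-IgG cells (0.602, 0.442 to 0.822), and Klrc2 at 144.4 and 231.6 CPM (0.623, 0.422 to 0.924). A UMI was seen in 55.1% and 59.5% of cells for Klrb1c and in 44.9% and 47.6% for Klrc2. The intervals of these shares overlapped between the libraries for all 3 genes. Few cells held much of the anti-IgG levels, 6 of 42 cells with 39 of 81 Klrb1c UMIs and 8 with 59 of 107 Klrk1 UMIs. In the anti-PD1 gate 3 of 78 cells held 16 of 92 Klrb1c UMIs and 7 held 50 of 124 Klrk1 UMIs. Klrk1, Klrb1c and Klrc2 were the members past the fold, all as lower, and 0 were past it as higher. In this gate 7.85% of 2026 genes were past the fold as lower and 8.29% as higher. With the cells thinned to 1000 UMIs Klrk1 (0.635, 0.372 to 1.09) and Klrc2 (0.746, 0.345 to 1.66) were no longer beyond counting error, Klrb1c was at 0.318 on fewer than 50 UMIs, and Tyrobp was past the fold at 0.495 (0.301 to 0.810). In the 9 anti-PD1 and 4 anti-IgG cells without Cd3 UMIs the ratios were 0.600 for Klrk1, 0.550 for Klrb1c and 0.7000 for Klrc2, with intervals that included 1.

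Klrc1 in NK-marker cells was at 298.4 CPM (124 UMIs) in the anti-PD1 and 340.6 CPM (75 UMIs) in the anti-IgG library, a ratio of 0.876 (0.653 to 1.18). This value depended on the gate, since with 2 of the 14 NK genes required (210 and 117 cells) the ratio was 1.27 (1.02 to 1.59). Klrd1 was at 428.4 and 499.5 CPM (0.858, 0.672 to 1.098) in anti-PD1 and anti-IgG NK-marker cells and Klre1 at 226.2 and 217.9 CPM (1.04, 0.726 to 1.502). Ncr1, with 38 and 25 UMIs, was at 91.4 CPM in anti-PD1 and 113.5 CPM in anti-IgG cells (0.806, 0.474 to 1.39). The adaptors were present at 498.1 and 531.3 CPM for Tyrobp (0.938, 0.744 to 1.19) and at 1146 and 1022 CPM for Fcer1g (1.12, 0.955 to 1.32). None of these was shifted beyond counting error, and over the 9 members the median log2 ratio was -0.22 in this gate, beside -0.06 over all genes with enough UMIs. The NK-marker cells held 13 anti-PD1 and 3 anti-IgG UMIs of 13 myeloid genes, with 8 and 11 of those genes at 0, beside 207 and 117 Tyrobp UMIs and 476 and 225 Fcer1g UMIs. In myeloid cells the same list came with 5.42 and 6.60 Tyrobp UMIs per 100 myeloid UMIs.

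**Figure D3:**
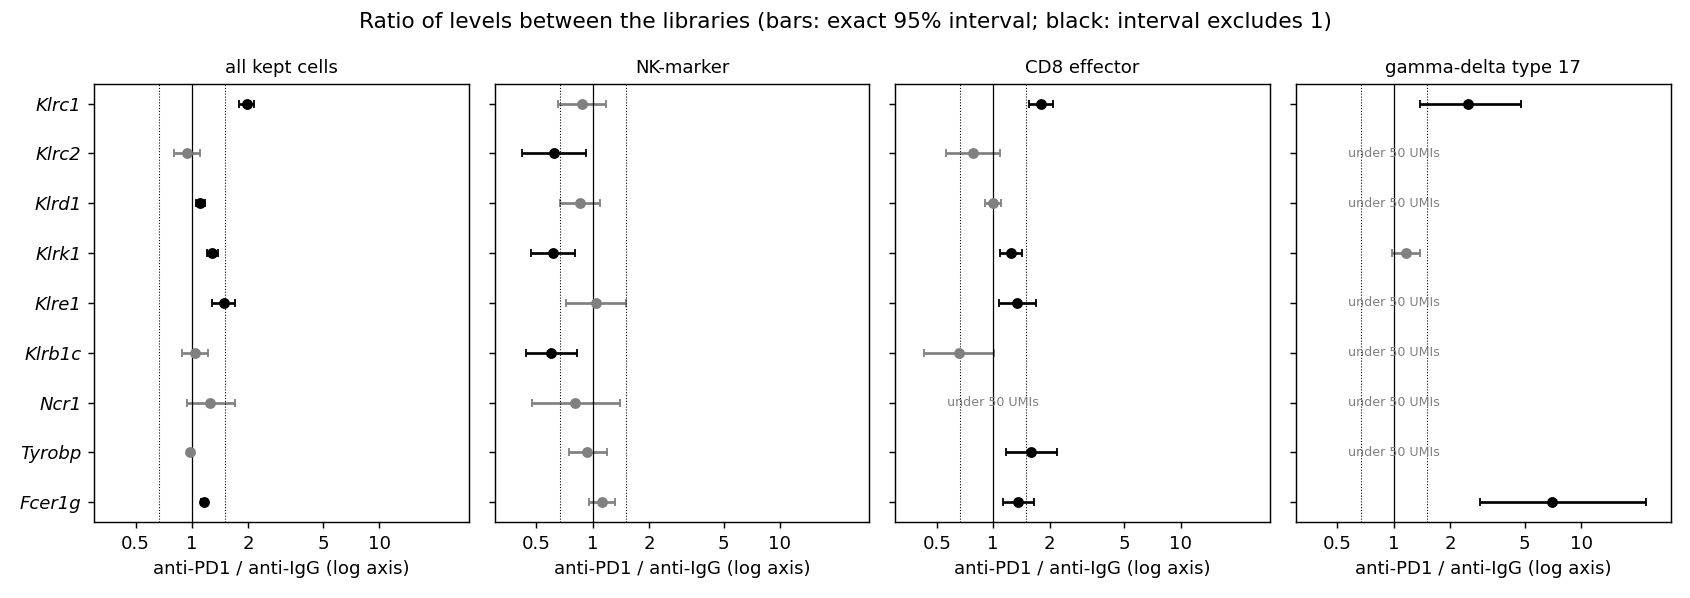
Ratio of the anti-PD1 to the anti-IgG level (log axis) of each gene over all kept cells and in 3 gates; bars are exact 95% intervals, black marks intervals that exclude 1 and dotted lines mark 1.5 and 0.667. In CD8 effector cells Klrc1 lies at 1.80, while in NK-marker cells Klrc2, Klrk1 and Klrb1c lie between 0.602 and 0.623.

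In CD8 effector cells Klrc1 was seen in more cells and at a higher level in the anti-PD1 library. It was found in 32.0% (28.7 to 35.4) of 782 anti-PD1 and 21.2% (17.7 to 24.98) of 510 anti-IgG CD8 effector cells, at 156.7 CPM (145.3 to 168.7) and 87.2 CPM (77.1 to 98.1), a ratio of 1.80 (1.56 to 2.08). Median depths were 4596 and 5313 UMIs per cell, so the library with the higher share was the shallower. After thinning to 1000 UMIs the shares were 14.6% (12.2 to 17.3) of 779 anti-PD1 and 8.13% (5.90 to 10.9) of 504 anti-IgG cells. Cells with 3 or more Klrc1 UMIs numbered 110 in the anti-PD1 and 41 in the anti-IgG library, and the highest cells held 20 and 12 UMIs. Leaving out the cell with the most Klrc1 UMIs in each library gave a ratio of 1.83, so 1 cell did not carry the difference.

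With all UMIs counted, the other receptor genes of CD8 effector cells had ratios nearer to 1 or below it. Klrk1 was at 134.8 CPM in anti-PD1 and 108.5 CPM in anti-IgG cells (1.24, 1.09 to 1.42), seen in 30.7% and 25.7% of cells. Klre1 was at 50.004 CPM in anti-PD1 and 37.2 CPM in anti-IgG cells (1.34, 1.07 to 1.69), also below the fold of 1.5. With cells thinned to 1000 UMIs Klre1 was past the fold, at 2.31 (1.26 to 4.53), beside 1.95 (1.41 to 2.74) for Klrc1. Klrc2 (18.1 and 23.2 CPM, 0.779, 0.561 to 1.08) and Klrb1c (10.04 and 15.3 CPM, 0.658, 0.428 to 1.009) had ratios under 1 with intervals that included it. Klrd1, which was found in 54.9% of anti-PD1 and 52.4% of anti-IgG cells, had nearly the same level in both, 222.6 and 223.6 CPM (0.995, 0.903 to 1.098). Ncr1 was rare, with 16 UMIs in 8 anti-PD1 cells and 8 UMIs in 3 anti-IgG cells.

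Tyrobp was at 31.9 CPM in anti-PD1 and 20.04 CPM in anti-IgG CD8 effector cells, a ratio of 1.59 (1.18 to 2.18), and was found in 4.99% and 2.75% of them. In other CD8 cells the shares were 1.95% and 0.759%, with medians of 4052 and 4149 UMIs per cell, and in CD4 cells 1.44% and 1.27%. Thinned to 1000 UMIs, 1.93% (1.08 to 3.16) of anti-PD1 and 0.794% (0.217 to 2.02) of anti-IgG CD8 effector cells held Tyrobp, beside 1.18% and 0.510% of other CD8 cells, with overlapping intervals. The call rested on few cells: 9 anti-PD1 and 3 anti-IgG cells held 90 of 143 and 48 of 63 Tyrobp UMIs. It was lost with the highest doublet scores removed, at 1.26 (0.919 to 1.75), and with 3 effector genes required, at 1.20 (0.851 to 1.70), while without the top cell it was 2.28 (1.56 to 3.41). Fcer1g was at 75.0 and 55.0 CPM (1.36, 1.13 to 1.65). These cells held 97 and 64 UMIs of the 13 myeloid genes, 21.7 and 20.4 CPM, with Adgre1, S100a8 and S100a9 at 0 in both libraries, and the part of myeloid RNA in the adaptor values was not tested. Of the 8 members with enough UMIs, 2 (Klrc1 and Tyrobp) were past the fold as higher and 0 as lower, beside 5.28% and 6.88% of 8839 genes. The median log2 ratio of those 8 was 0.37, beside -0.05 over all genes with enough UMIs.

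When the CD8 effector cells were split by other genes, Klrc1 was higher in anti-PD1 cells, with an interval above 1, in every class given here. Its level was higher where more effector genes were seen, in the anti-PD1 library at 44.1, 169.2 and 211.6 CPM for 2, 3 and at least 4 genes, and in the anti-IgG library at 25.1, 92.8 and 130.7 CPM. The ratios in these classes were 1.76 (1.08 to 2.93), 1.82 (1.38 to 2.44) and 1.62 (1.36 to 1.93), and 1.66 with the classes mixed alike. Cells with a UMI of the inhibitory receptor genes Pdcd1 or Tigit had a Klrc1 ratio of 1.61 (1.33 to 1.95), and cells with neither 1.95 (1.56 to 2.44). With a Cd8b1 UMI the ratio was 1.77 (1.53 to 2.05) and without one 2.30 (1.12 to 5.32). The differences between these ratios were not tested.

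Klrk1 and Klrc2 were not even across those classes. Among CD8 effector cells with 2 effector genes Klrk1 was at 34.8 CPM in anti-PD1 and 79.3 CPM in anti-IgG cells (0.439, 0.294 to 0.646), and among those with at least 4 at 189.3 and 133.6 CPM (1.42, 1.19 to 1.70). So the ratio lay on opposite sides of 1 at the ends of this scale, a difference that was not tested. Klrc2 was at 1.70 CPM in anti-PD1 and 17.4 CPM in anti-IgG cells with 2 effector genes, from 2 and 18 UMIs (0.0975, 0.0110 to 0.407). Without a Pdcd1 or Tigit UMI it was at 11.7 and 29.1 CPM (0.400, 0.216 to 0.708), and with one at 21.2 and 16.4 CPM (1.29, 0.795 to 2.16).

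**Figure D4:**
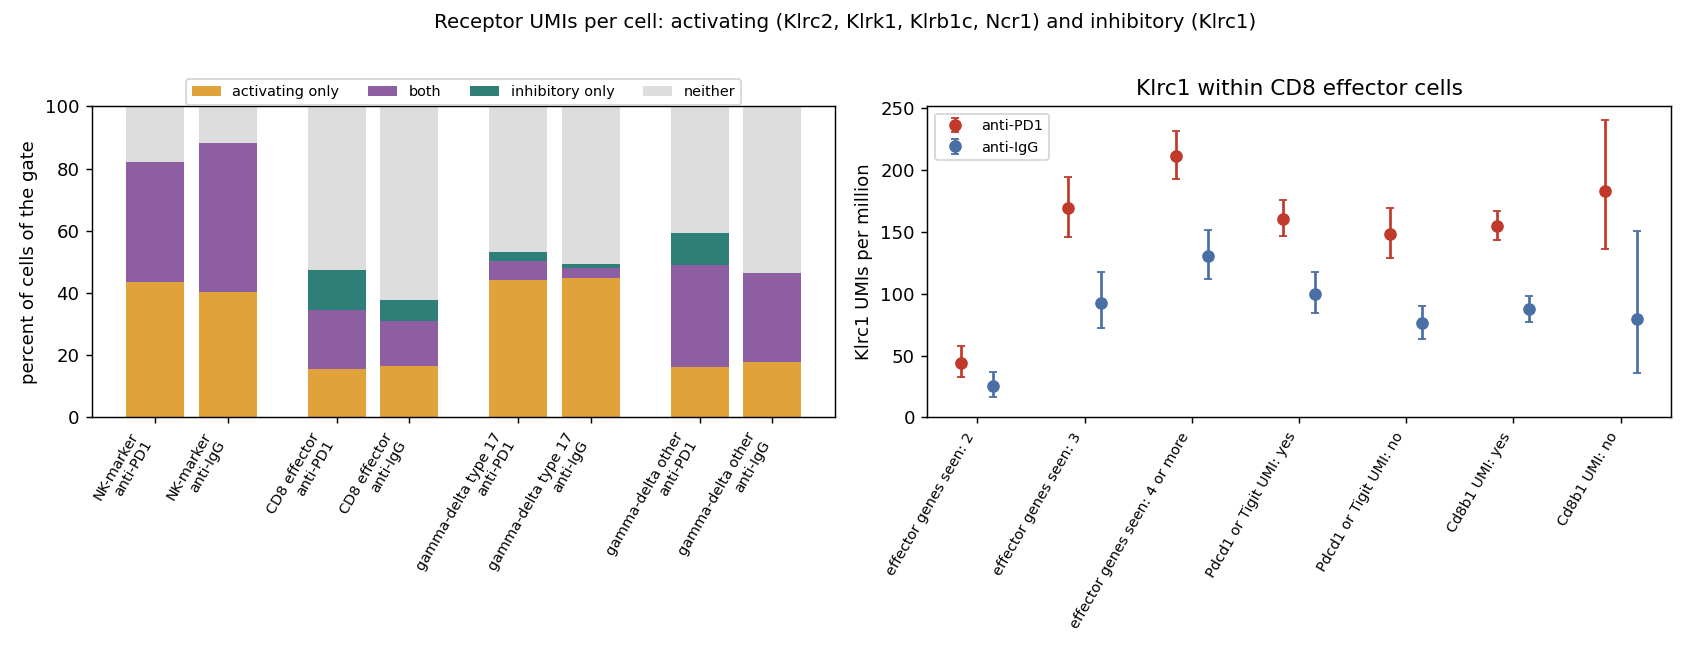
Left, percent of the cells of 4 gates with UMIs of activating receptors only, of both kinds, of the inhibitory Klrc1 only, or of neither, anti-PD1 left of anti-IgG. Right, Klrc1 level (CPM, exact 95% Poisson intervals) in classes of CD8 effector cells, where the anti-PD1 points lie above the anti-IgG points in every class shown.

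The balance of receptors was taken as the summed UMIs of the activating genes Klrc2, Klrk1, Klrb1c and Ncr1 over those of the inhibitory Klrc1. Since it sums different genes without regard to their length, its size is read only between libraries. In CD8 effector cells it was 1.06 (0.957 to 1.18) in the anti-PD1 and 1.72 (1.47 to 2.00) in the anti-IgG library, a quotient of 0.620 (0.515 to 0.745). NK-marker cells had 2.53 (2.05 to 3.14) and 3.52 (2.71 to 4.61), a quotient of 0.719 whose interval of 0.509 to 1.013 included 1. Gamma-delta type 17 cells had 7.101 (5.51 to 9.28) and 15.1 (8.79 to 28.0), where the anti-IgG value rests on 14 Klrc1 UMIs. CD4 cells, with few of these transcripts, had 4.41 in each library. The quotient of type 17 cells was 0.471 (0.240 to 0.869), that of the other gamma-delta cells 0.374 (0.202 to 0.680) and that of the remaining cells 0.517 (0.411 to 0.647). The balance thus lay lower, towards Klrc1, in the anti-PD1 library in CD8 effector, both kinds of gamma-delta and remaining cells beyond counting error. Without Klrc2 the quotient in CD8 effector cells was 0.654, and the part of the reads that Klrc1 shares with Klrc2 was not tested.

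Counted by cell, the difference in CD8 effector cells lay in those with Klrc1. Cells with Klrc1 alone made up 12.9% (10.6 to 15.5) of anti-PD1 and 6.86% (4.83 to 9.42) of anti-IgG CD8 effector cells. Cells with Klrc1 and an activating receptor made up 19.1% (16.4 to 22.0) and 14.3% (11.4 to 17.7), with overlapping intervals. Those with activating receptors alone were 15.5% and 16.7%, with overlapping intervals. In NK-marker cells 0 of 78 anti-PD1 and 0 of 42 anti-IgG cells had a Klrc1 UMI without one of an activating receptor; a count of 3 such cells would be 3.85% and 7.14%. Every Klrc1-bearing NK-marker cell, 30 and 20, also held a UMI of an activating receptor.

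Within each library the CD8 effector cells with a Klrc1 UMI (250 anti-PD1, 108 anti-IgG) had higher levels of several other members than those without (532 and 402). Klrc2 was 6.42 (3.82 to 11.2) times as high in the anti-PD1 and 7.65 (4.55 to 13.2) times as high in the anti-IgG library, Klrk1 3.24 and 2.81 times and Klre1 3.72 and 5.47 times. Klrd1, without which NKG2A is not carried to the cell surface, was only 1.26 and 1.49 times as high, and a Klrd1 UMI was found in 63.2% of anti-PD1 and 65.7% of anti-IgG Klrc1-bearing cells. Genes picked after values had been seen give the same cells a wider description. The granzyme genes Gzmk (2.24 and 1.98 times) and Gzmb (2.00 and 2.47 times), the chemokine gene Ccl5 (1.83 and 1.91 times) and Tigit (1.37 and 1.42 times) were higher beside Klrc1. Pdcd1 was not beyond counting error, at 1.14 (0.957 to 1.35) times in the anti-PD1 and 0.852 (0.634 to 1.13) times in the anti-IgG library. Median depths were 4533 against 4659 UMIs in the anti-PD1 and 5716 against 5268 in the anti-IgG library. Gzmk, Gzmb and Ccl5 also served to choose the gate.

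Gamma-delta type 17 cells carried Klrk1 but little else of the set. Klrk1 was found in 48.7% of 503 anti-PD1 and 47.2% of 248 anti-IgG type 17 cells, at 193.7 and 166.9 CPM (1.16, 0.983 to 1.38), a difference within counting error. Its adaptor partner Hcst was seen in 74.3% of anti-PD1 and 76.9% of anti-IgG cells with Klrk1, and Tyrobp in 2.86% and 0%. In type 17 cells without Klrk1 the shares were 69.4% and 74.8% for Hcst and 1.16% and 0.763% for Tyrobp, with overlapping intervals. Klrd1 was found in 1.79% and 1.21% of type 17 cells, about the share in B cells. The type 17 cells thus held NKG2D transcripts largely without those of CD94.

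Klrc1 was low in type 17 cells but differed, at 28.5 CPM (69 UMIs, in 8.95% of cells) in the anti-PD1 and 11.5 CPM (14 UMIs, in 4.44%) in the anti-IgG library, a ratio of 2.48 (1.38 to 4.76). Only 1 of the 45 anti-PD1 and 0 of the 11 anti-IgG cells with Klrc1 had a Klrd1 UMI. Fcer1g had 70 UMIs in anti-PD1 and 5 in anti-IgG type 17 cells (7.03, 2.88 to 22.3), but 59 of the 70 lay in 4 cells, 38 of them in 1. Tyrobp had 35 UMIs in 10 anti-PD1 cells and 1 UMI in anti-IgG cells (ratio 17.6, counting interval 2.96 to 714.2), with 22 of the 35 in 2 cells. The adaptor ratios therefore describe few cells. Klrc1 and Fcer1g were past the fold as higher in type 17 cells, as were 6.22% of 7137 genes, with 6.99% past it as lower; both reached 50 UMIs through the anti-PD1 library, where they were high, so nothing is read from their number. The remaining members were sparse here, with Klrc2 at 15 and 6 UMIs, Klrb1c at 5 and 2, Klre1 at 5 and 0 and Ncr1 at 1 and 0.

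The other gamma-delta cells, 49 anti-PD1 and 28 anti-IgG, were, beside NK-marker cells, the gate with high levels of Klrc1, Klrc2 and Klrb1c. They are described after their values were seen, although fewer than 50 cells were found. The criteria of both gates were met by 12 anti-PD1 and 5 anti-IgG cells, and the NK-marker gate was applied first, so the 2 gates are not separate kinds of cells. Klrc1 was at 338.9 CPM (82 UMIs) in anti-PD1 and 140.9 CPM (22 UMIs) in anti-IgG cells, a ratio of 2.41 (1.49 to 4.05), and Klrd1 at 330.7 and 198.5 CPM (1.67, 1.09 to 2.61). Fcer1g was at 458.8 and 96.1 CPM (4.78, 2.77 to 8.82), and Tyrobp had 27 and 3 UMIs, fewer than 50 in all (5.81, 1.79 to 29.9). Klrc2 (99.2 and 108.9 CPM), Klrk1 (157.1 and 217.7 CPM), Klre1 (66.1 and 83.3 CPM) and Klrb1c (86.8 and 96.1 CPM) had ratios of 0.721 to 0.911 with intervals that included 1. Ncr1 had 9 UMIs in 5 anti-PD1 cells and 0 UMIs in anti-IgG cells. More of the anti-PD1 than of the anti-IgG cells also met the CD8 effector gate; without them 39 and 27 cells were left, Klrc1 was at 1.91 (1.16 to 3.25) and Fcer1g at 4.32 (2.501 to 8.005), Klrd1 was within counting error at 1.19 (0.756 to 1.90), and Klrk1 was below 1 at 0.561 (0.332 to 0.944). Over both kinds of gamma-delta cells Klrc1, Tyrobp and Fcer1g were past the fold as higher, as were 5.96% of 7478 genes, with 7.13% past it as lower; Tyrobp and Klrc1 had 4 and 36 UMIs in the anti-IgG library and Fcer1g 20, so they reached 50 UMIs through the anti-PD1 library and nothing is read from their number. With a wider gate (Trdc or a V segment with a Cd3 UMI, 904 and 419 cells) the Klrc1 ratio was 1.45 (1.17 to 1.81), short of the fold, against 2.16 (1.49 to 3.20) in the gate used, and with thinned cells it was 1.14 (0.594 to 2.32). Tyrobp and Fcer1g were at 2.32 and 1.89 in the wider gate, against 7.99 and 4.66 in the gate used, and Tyrobp was at 13.2 without its top cell in each library.

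Ordered by Klrc1 level, the gates ran in a broadly similar sequence in both libraries. In the anti-PD1 library the other gamma-delta (338.9 CPM) and NK-marker cells (298.4 CPM) led with overlapping intervals, followed by CD8 effector (156.7), remaining (51.3), mixed (38.0), type 17 (28.5), CD4 (9.86) and other CD8 cells (3.48). In the anti-IgG library NK-marker cells (340.6) stood above other gamma-delta (140.9) and CD8 effector cells (87.2), the intervals of the last pair overlapping, followed by mixed (24.0) and remaining cells (19.7), and type 17 (11.5) and CD4 cells (10.7) did not differ beyond theirs. Klrd1 departed from this order because other CD8 cells, which nearly lacked Klrc1, held it at 147.5 CPM in the anti-PD1 and 173.1 CPM in the anti-IgG library (0.852, 0.727 to 0.999). A Klrd1 UMI was found in 39.3% and 45.1% of these cells. CD4 cells had Klrc1 at 9.86 and 10.7 CPM (0.920, 0.635 to 1.33), and Klrk1 at 35.9 and 39.3 CPM (0.914, 0.757 to 1.104). Ncr1 in CD4 cells had 0 UMIs in the anti-PD1 and 18 in the anti-IgG library, and the 18 came from 2 cells with 9 each.

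The remaining cells, most of which carried Cd3 UMIs but met no other gate, are described gene by gene. The share of all genes past the fold was not counted in them, so nothing is read from the number of members. Klrc1 was at 51.3 CPM in anti-PD1 and 19.7 CPM in anti-IgG remaining cells (2.60, 2.14 to 3.18), Klrk1 at 71.6 and 47.5 CPM (1.51, 1.32 to 1.73) and Klre1 at 16.9 and 9.21 CPM (1.83, 1.35 to 2.51). Ncr1 had 48 and 23 UMIs (1.70, 1.013 to 2.93), while Klrc2 (13.7 and 15.9 CPM) and Klrb1c (18.3 and 14.6 CPM) had intervals that included 1. Klrd1 (1.12), Fcer1g (1.19) and Tyrobp (0.903) lay near 1, with intervals that excluded it. In mixed cells Klrc1 was at 38.0 and 24.0 CPM (1.59, 1.15 to 2.21), Tyrobp at 584.8 and 838.3 CPM (0.698, 0.655 to 0.742) and Fcer1g at 530.3 and 824.0 CPM (0.644, 0.604 to 0.686), and the intervals of the other 6 members included 1. Myeloid cells held Tyrobp at 2746 and 2875 CPM (0.955, 0.885 to 1.03) and Fcer1g at 2760 and 2480 CPM (1.113, 1.03 to 1.21), Klrd1 at 53.6 and 63.0 CPM, 1 and 3 UMIs of Klrk1 and none of the other receptors. In B cells Tyrobp had 84 and 35, Fcer1g 22 and 9 and Klrd1 10 and 4 UMIs.

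CD4 and other CD8 cells held few transcripts of the set beyond those named. CD4 cells had Klrd1 at 31.9 CPM in the anti-PD1 and 27.95 CPM in the anti-IgG library (1.14, 0.923 to 1.41), Fcer1g at 23.9 and 20.96 CPM (1.14, 0.894 to 1.46) and Tyrobp at 26.6 and 18.0 CPM (1.48, 1.15 to 1.90), where single cells held 35 of the 151 and 43 of the 116 Tyrobp UMIs. Klrc2, Klre1 and Klrb1c each had between 14 and 36 UMIs per library in CD4 cells, with intervals that included 1. Other CD8 cells had Tyrobp at 38.3 and 46.9 CPM (0.817, 0.597 to 1.12), Fcer1g at 44 and 18 UMIs (1.84, 1.04 to 3.38), Klrk1 at 11 and 14 UMIs and no more than 4 UMIs of Klrc2, Klre1, Klrb1c or Ncr1 in either library.

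Receptors and adaptors shared cells more in some gates and pairs than in others. An Fcer1g UMI was present in 17 of 17 anti-PD1 and 9 of 10 anti-IgG NK-marker cells with Ncr1. In those without Ncr1 it was present in 67.2% and 65.6%, with overlapping intervals in the anti-IgG library. In CD8 effector cells with Klrb1c it was present in 64.5% of 31 anti-PD1 and 63.2% of 19 anti-IgG cells, against 6.13% and 3.87% of the others. The Klrb1c-bearing CD8 cells were deeper, with medians of 7372 and 7361 UMIs beside 4581 and 5300, and the part of depth or of paired cells in this was not tested. Tyrobp was found in 58.7% of anti-PD1 and 51.6% of anti-IgG NK-marker cells with Klrk1 and in 28.1% and 27.3% of those without, with overlapping intervals in both libraries. In CD8 effector cells Tyrobp was found in 9.58% and 5.34% of those with Klrk1 and 2.95% and 1.85% of those without. It was found in 8.47% and 6.38% of those with Klrc2 and 4.70% and 2.38% of those without. The intervals overlapped for Klrc2 in both libraries and for Klrk1 in the anti-IgG library. In NK-marker cells with Klrc2, which needs DAP12 to signal, Tyrobp was found in 57.1% and 70.0%. In those without Klrc2 it was found in 37.2% and 22.7%, with overlapping intervals in the anti-PD1 library.

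Levels over 8 gates in both libraries, as log2(CPM + 10), were compared by Pearson correlation between each member and 11971 genes. The genes with the highest correlations are given as closest. The members were not among these genes, and some members lay closer to each other, as given last. The 16 points share 2 libraries and their depths, so the values are descriptions; NK-marker cells were left out because the anti-IgG gate held fewer than 50 cells, as were the other gamma-delta cells on their own. Klrc1 was closest to Dmrta1 (r = 0.95), the Ly49 gene Klra6 (0.94) and Ncald (0.91), and Klre1 to Samd3 (0.97), Kcnj8 (0.97) and Ncald (0.96). Among these genes Klrc2 was closest to Klra6 (0.90), Ttc7b (0.90) and the integrin gene Itga1 (0.89). These values were below those of Klrc2 with the members Klrb1c (0.92) and Klrc1 (0.91). Klrb1c and Ncr1 shared their nearest 3 of these genes, Klra1 (0.95 and 0.94), Klrb1a (0.92 and 0.89) and C1qtnf6 (0.91 for both). Klrk1 stood nearest to Pvrig, an inhibitory receptor gene (0.96), Ndufa13 (0.95) and Il18rap (0.95), and Klrd1 to Hdgfl3 (0.89), Bend4 (0.88) and Ugcg (0.87). Tyrobp was closest to Alox5ap, Pltp and Mpeg1 (0.98 each) and Fcer1g to Cd63 (0.97) and Gas7 (0.97). Among the members, Klrc1 with Klre1 (0.94), Klrc2 with Klrb1c (0.92), Tyrobp with Fcer1g (0.92) and Klrc1 with Klrc2 (0.91) were closest. Klrd1 with Klrk1 was at -0.04.

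Of 49 genes related by pathway, 43 had at least 50 UMIs over all kept cells. Of these 3 were past the fold as higher and 3 as lower, beside 5.14% and 12.1% of 13608 genes. The higher ones were the NK receptor gene Klrb1a (1.69, 1.23 to 2.35) and the transcription factor genes Eomes (28.99 and 18.8 CPM in anti-PD1 and anti-IgG cells, 1.54) and Nfil3 (93.7 and 28.1 CPM, 3.34, 3.06 to 3.65), both known for roles in NK cell development. The lower ones were Cd226, an activating receptor (81.1 and 136.7 CPM, 0.593), Clec2d, the ligand of the inhibitory receptor Klrb1b in mice (84.0 and 170.4 CPM, 0.493), and Zfp683, the residency factor Hobit (0.621). In NK-marker cells 21 had enough UMIs, in a gate where 8.29% of 2026 genes were past the fold as higher and 7.85% as lower. Of the 21, Nfil3 was higher (170.9 and 59.0 CPM, 2.89, 1.59 to 5.70), and Slamf7 (0.485), Clec2d (0.325) and the regulator Id2 (0.655) were lower. CD8 effector cells had 33 with enough UMIs. Nfil3 was higher (3.21) and Cd226 (0.647) and Clec2d (0.481) were lower, beside 5.28% and 6.88% of 8839 genes. Gamma-delta cells had 25, with Nfil3 (2.07) and Cd160 (2.96, 1.39 to 7.27, a gene picked after its values were seen) higher and Clec2d (0.378) lower. There 5.96% of 7478 genes were past the fold as higher and 7.13% as lower. Nfil3 was higher and Clec2d lower in each of these gates, which are parts of the same libraries and no independent checks.

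The signalling partners of the members and the ligand of NKG2A lay closer to 1. Hcst was at 515.9 CPM in anti-PD1 and 571.0 CPM in anti-IgG CD8 effector cells (0.903, 0.849 to 0.962), and Cd247, the zeta chain used by NKp46, at 199.1 and 235.7 CPM (0.845, 0.765 to 0.9325). H2-T23, which encodes Qa-1, was at 424.8 and 438.3 CPM in those cells (0.969, 0.904 to 1.04). Over all kept cells their ratios were 0.851, 0.943 and 0.919. The Klre1 partners were sparse, with 41 and 19 UMIs of Klri1 (1.71, 0.968 to 3.11) and 37 and 33 of Klri2 (0.887, 0.540 to 1.46) in all kept anti-PD1 and anti-IgG cells. Of the 16 signalling genes 15 had enough UMIs over all kept cells and 0 were past the fold in either direction. Of all 13608 genes with enough UMIs 5.14% were past it as higher and 12.1% as lower.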

How the data were processed

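Raw UMI counts per gene and barcode, not normalized, were deposited by the authors for each library. Cell Ranger 7.1.0 made these counts, per the file headers; the version in the submitters' processing notes is 7.2.0, beside Seurat 4.4.0 and mm10. The labels name a 3′ kit; which transcript end was read was not tested and bears on V segments, part of the gamma-delta gate. Kept cells had 300 genes or more, 500 UMIs or more and no more than 10% mitochondrial UMIs; 1 gate symbol was matched by gene ID. The 9 genes, the gates, the 49 related genes and the motifs were chosen with earlier results of these data known, and all 9 are described in every gate, those with fewer than 50 cells in a library being named as such; 1 gene of the type 17 list and 1 correlated gene are not reported here. Ratios have exact intervals conditional on summed UMIs, levels exact Poisson and shares exact Clopper-Pearson intervals, all covering counting error only; a count of 0 cells is set beside the share that 3 cells with a UMI would be, which limits cells with a UMI and not cells expressing the gene. Scrublet's automatic threshold marked 4 anti-PD1 and 0 anti-IgG cells, so doublets were kept, and removing the 272 and 149 highest scores was an alternative. Calculations were tested on simulated counts. Python 3.11.15, numpy 2.4.6, scipy 1.17.1, pandas 2.3.3, scanpy 1.11.5, Biopython 1.88 and matplotlib 3.10.9 were used.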

Additional observations from a re-analysis of the deposited data

Results flagged for a closer look

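Klrk1 lay on opposite sides of 1 in gates of the same libraries, with an anti-PD1 over anti-IgG ratio of 1.24 in CD8 effector cells and 0.614 in NK-marker cells, both beyond counting error. With cells thinned to 1000 UMIs the NK-marker ratio of Klrk1 was 0.635 (0.372 to 1.09). Within the CD8 effector gate Klrk1 was at 0.439 (0.294 to 0.646) in cells with 2 effector genes and 1.42 (1.19 to 1.70) with at least 4. Klrd1 also lay on opposite sides of 1, in the other gamma-delta cells (1.67) and the other CD8 cells (0.852). The first was 1.19 (0.756 to 1.90) without cells that also met the CD8 effector gate. The difference between the gates was not tested in either case, and each gate had 1 library per group.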

How the results depend on the processing

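Alternatives were applied to the ratios over all kept cells and in the NK-marker, CD8 effector and gamma-delta gates. The Klrc1 ratio stayed above 1.5 in CD8 effector cells under each alternative tried, between 1.66 and 1.95, and over all kept cells between 1.78, with the gates mixed alike, and 2.04. Ratios with classes or gates mixed alike, or with each cell weighted alike, had no interval and so could not be called past the fold. Over all kept cells 13 of the 81 alternative ratios left the main counting interval, not counting 1 that crossed 1 from a main ratio beyond counting error, Fcer1g with the gates mixed alike, at 0.927. In the NK-marker, CD8 effector and gamma-delta gates 14 of 63, 6 of 45 and 6 of 40 left it. Ratios whose main interval included 1 crossed 1 in 6 alternatives over all kept cells and in 8, 4 and 4 in those gates; 1 of these was beyond counting error on the other side, Klrc1 in the NK-marker gate with 2 gate genes required (1.27). The count of members past the fold over all kept cells was 2 with thinned cells and 2 without myeloid, B and mixed cells, Klre1 being the added gene in both. In the NK-marker gate it was 1 with thinned cells and 1 without Cd3-bearing cells (9 anti-PD1 and 4 anti-IgG cells), in both cases Tyrobp, in CD8 effector cells 1 with the highest doublet scores removed, and in gamma-delta cells 0 with thinned cells, where fewer genes reach 50 UMIs; there Tyrobp was at 8.01 (1.25 to 336.1), Fcer1g at 3.63 (1.28 to 14.2) and Klrc1 at 1.14. In CD8 effector cells the count stayed at 2 with thinned cells and with 3 effector genes required, but the genes changed. They were Klrc1 and Klre1 (2.31, 1.26 to 4.53) with thinned cells. With 3 effector genes they were Klrc1 and Fcer1g (1.54, 1.23 to 1.95). The Klrb1c ratio in NK-marker cells was 0.318 with thinned cells, and the ratio of NK-marker shares was 2.21 (0.905 to 6.15) when 21 and 7 thinned cells were gated. Genes past the fold as lower over all kept cells numbered 849 with at least 200 UMIs, against 1646; the cause of these moves beyond cells and genes left out was not tested. Leaving out shared barcodes, the top cell of a gene or other gamma-delta cells that also met the CD8 effector gate, and the mixes within the CD8 effector and gamma-delta gates were chosen after seeing the data. No paired analysis was possible because each group had 1 library, and for the same reason no library could be left out. In the NK-marker and other gamma-delta gates, with few cells, depth limits what can be told: ratios of the rarer genes have wide intervals.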

Other observations

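Among the cells in none of the named gates were 103 anti-PD1 and 91 anti-IgG cells with no Cd3 UMI and at least 2 dendritic cell markers. They held 3060 and 2915 Tyrobp UMIs, more than any T cell gate, and 596 and 576 Fcer1g UMIs. They also held Klrd1 at 268.6 CPM in the anti-PD1 and 235.2 CPM in the anti-IgG library (216 and 198 UMIs), with 0 Klrc1 UMIs in either library and 1 and 0 of Klrc2. A further 111 anti-PD1 and 108 anti-IgG cells had neither a Cd3 UMI nor 2 dendritic cell markers. They held 14 anti-PD1 and 0 anti-IgG UMIs of Klrc1, 22 and 2 of Klrk1, 9 and 0 of Klrb1c, and 9 and 0 of Ncr1, and in the anti-PD1 library these lay in 4, 10, 4 and 3 cells. Among the cells of this remainder that carried Cd3, Klrc1 was at 58.0 CPM in the anti-PD1 (417 UMIs) and 24.2 CPM in the anti-IgG library (135 UMIs), and Klrk1 at 79.1 and 57.8 CPM. No explanation of these values was tested.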
